A study of Drosophila melanogaster with 2 samples.

Results

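The nuclear genes for subunits of the oxidative phosphorylation complexes were examined in a map of CG7271 binding in early Drosophila melanogaster embryos. Members were the protein-coding genes of the Ensembl annotation whose symbol starts with ND-, UQCR-, COX followed by a digit, Cyt-c or ATPsyn. The rule found 84 genes among 13945 protein-coding genes. They comprise 40 genes of complex I, 11 of complex III, 16 of complex IV, 15 of complex V and the 2 cytochrome c genes. A further property read from the symbols is used below. The symbols of 22 members end in L or in L and a digit, leaving out ND-MNLL, whose letters stand for amino acids, and these genes are called L paralogs, while the other 62 carry the subunit's plain name. The rule is case sensitive and misses subunits with other names, such as blw, RFeSP and the Sdh genes, which are described separately near the end.

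Binding was mapped by chromatin immunoprecipitation followed by sequencing (ChIP-seq) in whole, unsexed embryos aged 0 to 4 hours. All embryos came from a single transgenic line that stably makes CG7271 with GFP at its C-terminus, and per the description the tagged protein was precipitated through the GFP, although the antibody label reads CG7271. There were 2 biological replicates, numbered 2 and 3 and taken from separate biosamples, which form 1 group, so no comparison between conditions was possible. No untagged embryos were analysed here, and in whole embryos strong binding in few cells and weak binding in many cannot be told apart. The authors deposited 4 peak lists on the dm6 assembly, namely 1 list for each replicate, a list called on both replicates together (the pooled list), and a list of the peaks kept by the irreproducible discovery rate (IDR), a measure of how alike peaks rank in both replicates. The IDR list holds 2445 peaks and each of the others holds 30000. The IDR peaks are the highest pooled peaks by signal, so a place in that list does not show how well a single peak repeated. A gene was counted as carrying a summit when the point of highest signal of a peak, as the authors gave it, lay within 500 bp of any of the gene's annotated transcription start sites (TSSs). Signal is the authors' value for each peak on an unstated scale, so it is given as a rank within a list (rank 1 is the highest) or as a multiple of that list's median. The files hold no read counts, so read depth is unknown, and the intervals on shares are exact (Clopper-Pearson) 95% intervals that cover counting error over genes or summits alone.

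Oxidative phosphorylation takes place in the inner mitochondrial membrane. Complex I passes electrons from NADH to ubiquinone, complex III passes them on to cytochrome c, and complex IV passes them from cytochrome c to oxygen. These steps pump protons, and complex V, the ATP synthase, uses the returning protons to make ATP. Most subunits are encoded in the nucleus and made in the cytosol, while a few come from the mitochondrial genome and are not considered here. In Drosophila, many of the nuclear genes have a duplicate with expression largely limited to the testis. Early embryos run on maternal RNA and on mitochondria inherited from the egg, and take up transcription of their own genome during the hours sampled.

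Sequences under 8 of the 13 IDR summits at members are shown first, 6 with runs of A and T and the 2 that lack them, ATPsynO and COX6B. COX5A, UQCR-C1 and ATPsyngamma, with summits in a UTR, and ND-24 and ND-MWFE are not printed, so the choice follows no order of signal. Each sequence is the plus strand of dm6, read 5′ to 3′ up to 40 bp on either side of an IDR summit and without annotated UTR bases, and capitals mark runs of at least 8 bases that are all A or T.
Cyt-c-d: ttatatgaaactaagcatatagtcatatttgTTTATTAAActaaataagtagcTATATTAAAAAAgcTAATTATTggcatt
ND-ASHI: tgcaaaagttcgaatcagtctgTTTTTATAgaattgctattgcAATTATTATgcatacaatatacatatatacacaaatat
ND-51: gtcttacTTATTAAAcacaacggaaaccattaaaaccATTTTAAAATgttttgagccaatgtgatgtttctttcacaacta
COX5B: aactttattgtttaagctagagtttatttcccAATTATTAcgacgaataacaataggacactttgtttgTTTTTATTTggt
ND-42: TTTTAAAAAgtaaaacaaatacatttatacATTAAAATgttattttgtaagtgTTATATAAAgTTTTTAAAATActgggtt
ND-23: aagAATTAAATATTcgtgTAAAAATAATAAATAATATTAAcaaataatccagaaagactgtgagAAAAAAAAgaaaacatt
ATPsynO: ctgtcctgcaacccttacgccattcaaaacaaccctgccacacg
COX6B: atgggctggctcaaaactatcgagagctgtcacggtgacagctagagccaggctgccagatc
The first 6 contain such runs, and the ATPsynO and COX6B sequences contain none. They lie at chr2L:16716290-16716370 (Cyt-c-d), chrX:6679329-6679409 (ND-ASHI), chr2L:6062843-6062923 (ND-51), chr2L:6557661-6557741 (COX5B), chr3R:22027512-22027592 (ND-42), chr3R:15837225-15837305 (ND-23), chr3R:15265547-15265590 (ATPsynO) and chrX:19744336-19744397 (COX6B). Within 50 bp of the summit, 11 of the 13 member IDR summits had a run of at least 8 A or T (84.6%, interval 54.6 to 98.1), and ATPsynO and COX6B were the exceptions. The longest run was 34 bases at ATPsyngamma, followed by 22 at ND-23 and 16 at ND-24. Over all 1211 IDR summits at protein-coding genes the share with such a run was 70.9% (68.3 to 73.5), which lies within the members' interval. Counted once for each gene at a summit, as members are, that share was 73.9%. The GC content of these windows ran from 16.8% at ND-42 to 55.4% at COX6B, with a median of 28.7% for the members against 33.7% for all IDR summits at protein-coding genes. The latter median was 31.7% when counted for each gene at a summit. In the pooled list 58 of 76 member summits had an A or T run (76.3%, 65.2 to 85.3), against 59.1% (58.0 to 60.2) of 8168 summits and 61.4% when counted for each gene at a summit. The run length was chosen after the sequences had been seen.

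An IDR summit lay at 13 of the 84 members (15.5%, 8.51 to 25), and 12.0% of all protein-coding genes carried one. The interval of the members includes the share of all genes. Among the 1222 highest IDR peaks the members' share was the lower one, with 3 members (3.57%) against 6.33% of all protein-coding genes. This rests on few genes, and ND-24 at rank 1252 and ND-MWFE at rank 1307 lay just beyond that limit. By complex, 6 of 40 complex I genes had an IDR summit, 1 of 11 complex III genes, 1 of the 2 cytochrome c genes, 3 of 16 complex IV genes and 2 of 15 complex V genes. These shares ran from 9.09% in complex III to 18.8% in complex IV, apart from the cytochrome c pair, and their intervals overlap throughout. In the pooled list 58 members had a summit (69.0%, 58.0 to 78.7), against 54.2% of all protein-coding genes. Replicate 2 had a summit at 56 members (66.7%) and replicate 3 at 58 (69.0%), and each list had one at 53.3% of all protein-coding genes. Both replicate lists had a summit at 47 members (56.0%, 44.7 to 66.8), against 43.6% of all protein-coding genes. These need not be the same peak. With the replicate summits required to lie within 100 bp of each other, 34 members remained, and no all-gene share is given for that setting. Among genes with a summit, the median rank of the highest one was 6168 over 58 members in the pooled list, and 6275 over 7555 protein-coding genes. In replicate 2 these medians were 5927 and 6486, and in replicate 3 they were 5149 and 6400.

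**Figure D1:**
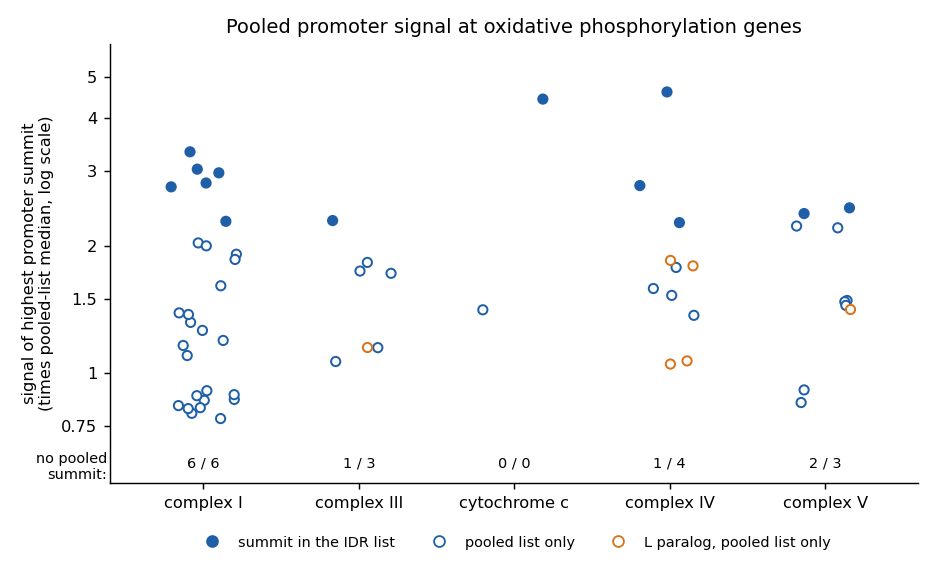
Signal of the highest pooled summit within 500 bp of a TSS, as a multiple of the pooled list's median on a log scale, with 1 point for each member, by complex. Filled points are the 13 members with an IDR summit, orange points are L paralogs, none of which is filled, and the numbers at the foot count members without a pooled summit (plain names before the slash, L paralogs after it).

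In complex I, the 6 genes with an IDR summit code for parts of both arms of the complex, by homology with the mammalian enzyme. ND-51 corresponds to the subunit that binds NADH and its flavin, ND-24 is its iron-sulfur partner, and ND-23 is an iron-sulfur subunit nearer to the membrane. ND-42, ND-ASHI and ND-MWFE are accessory subunits. The highest complex I summit was that of ND-ASHI, at pooled rank 1013, with a signal 3.34 times the median in the pooled list, 2.48 times in replicate 2 and 3.60 times in replicate 3. It lay at chrX:6679179-6679558, with the summit 251 bp upstream of the ND-ASHI TSS in an intron of Fum1, the neighbouring gene for fumarase of the tricarboxylic acid cycle. ND-24 followed at rank 1252, with 3.04 times the median pooled, 2.62 in replicate 2 and 3.02 in replicate 3, and its summit at chrX:17632004-17632383 lay 105 bp inside the gene, in an intron. It shares the summit with corolla, a gene for a protein of the synaptonemal complex, whose TSS is 42 bp away. Both summits ranked among the highest 2445 peaks of each replicate.

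ND-MWFE, at pooled rank 1307, was less even. Its summit reached 1.64 times the median in replicate 2, where it ranked 4282, and 4.19 times in replicate 3, where it ranked 636. The summit lay 141 bp upstream of ND-MWFE in an intron of TppII, a gene for tripeptidyl peptidase, whose TSS is nearer. ND-51, at rank 1475, had 2.67 times the median in replicate 2 and 2.33 times in replicate 3, and its summit at chr2L:6062693-6063072 lay between the gene and CG13994. ND-42, at rank 1543, had 2.12 times the median in replicate 2 and 3.10 times in replicate 3. Its summit at chr3R:22027362-22027741 lay 157 bp upstream of ND-42 and 72 bp upstream of Cchl, which codes for cytochrome c heme lyase, the enzyme that attaches heme to cytochrome c. The lowest of the 6, ND-23, ranked 2370 and had 2.17 times the median in replicate 2 and 2.47 times in replicate 3. Its summit at chr3R:15837075-15837454 lay about midway between the gene and spn-E, which codes for an RNA helicase of the piRNA pathway, 148 bp upstream of ND-23 and 154 bp upstream of spn-E.

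In complex III the IDR list held UQCR-C1, a core subunit, at pooled rank 2346. Its signal was 1.72 times the median in replicate 2 and 2.62 times in replicate 3, and the summit at chr3R:14890090-14890469 lay in the gene's 5′ UTR, 49 bp inside the TSS. CycC, the gene for Cyclin C of the Mediator kinase module, starts 26 bp away on the other strand. The second core subunit gene, UQCR-C2, missed the IDR list at pooled rank 3910, with 1.40 times the median in replicate 2 and 1.90 times in replicate 3. UQCR-6.4 had the next highest pooled summit of the complex, at rank 4323, and here the replicates were far apart, with rank 16661 in replicate 2 and rank 2563 in replicate 3. Cyt-c1, the gene of the cytochrome subunit that hands electrons to cytochrome c, ranked 12923 in the pooled list.

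The 2 cytochrome c genes lie near each other on 2L and differed in rank. Cyt-c-d, which is needed for caspase activation during sperm formation in Drosophila, had the second highest summit of all members, at pooled rank 532. Its signal was 4.45 times the median in the pooled list, 3.61 times in replicate 2 and 5.05 times in replicate 3. The summit at chr2L:16716140-16716519 was not at the start of Cyt-c-d but 369 bp inside it, in an intron, and 135 bp upstream of CG31808, a gene that starts within Cyt-c-d on the other strand. Cyt-c-p, which supplies the electron carrier in most tissues, ranked 6835 in the pooled list, with 1.41 times the median in replicate 2 and 1.27 times in replicate 3. Its pooled summits numbered 3.

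In complex IV, COX5A had the highest summit of any member, at pooled rank 495 with 4.62 times the pooled median. In replicate 2 the highest summit near its TSS ranked 359 with 4.55 times the median, and in replicate 3 it ranked 625 with 4.22 times. The pooled summit at chr3R:11819379-11819758 lay 30 bp upstream of the nearest COX5A start, in the 5′ UTR of a longer transcript of the gene. The replicate 3 summit nearest to it, 91 bp away, was a lower peak of rank 3386, while the highest one lay farther off, so the replicates do not place the summit at the same base. The neighbouring gene glo codes for a repressor of nanos translation and starts on the other strand, with the closest pair of starts 20 bp apart. COX5B ranked 1517, with 2.21 times the median in replicate 2 and 2.90 times in replicate 3, and its summit at chr2L:6557511-6557890 lay between the gene and IFT52, a gene of intraflagellar transport. COX5BL, its L paralog, had no pooled summit. COX6B, at rank 2406, had 2.04 times the median in replicate 2 and 1.84 times in replicate 3. Its summit at chrX:19744167-19744546 lies within 500 bp of CG18809, which has the same TSS as COX6B, and of CG33932 and Rpp20, which start 96 bp away on the other strand. Below the IDR list, the highest members of complex IV were the L paralogs COX7AL, at rank 3809, and COX4L, at rank 4076. COX7AL had 1.61 times the median in replicate 2 and 1.49 times in replicate 3, whereas COX4L had 2.14 times in replicate 2 and no summit in replicate 3.

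In complex V, the IDR list held ATPsyngamma, the rotating central shaft, and ATPsynO, part of the stalk that holds the catalytic head still. ATPsyngamma ranked 2016, with 2.34 times the median in replicate 2 and 1.98 times in replicate 3, and its summit at chr3R:29748738-29749117 lay in its 5′ UTR on the side of yata, a gene for a kinase-like protein. ATPsynO ranked 2150, with 1.40 times the median in replicate 2 and 2.65 times in replicate 3, and its summit at chr3R:15265397-15265776 lay 4 bp from the TSS. It was the sole member IDR summit with no other gene within 500 bp. ATPsynbeta, the gene of the catalytic subunit, was just outside the IDR list at pooled rank 2498. It ranked 1526 in replicate 2, with 2.48 times the median, and 2330 in replicate 3, with 2.30 times. ATPsynCF6, another stalk subunit, followed at rank 2560 with 1.69 times the median in replicate 2 and 2.63 times in replicate 3.

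**Figure D2:**
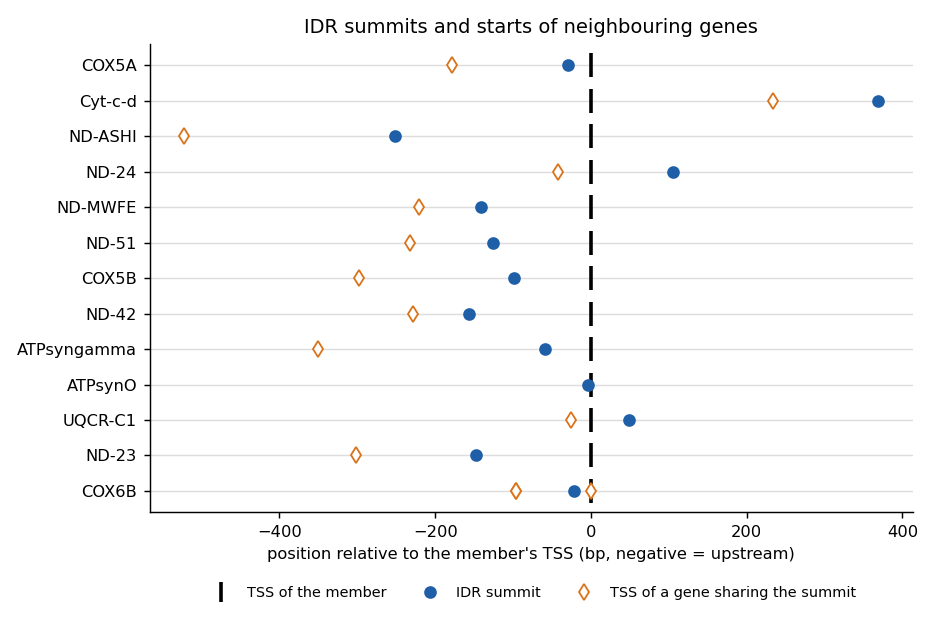
Position of each member's IDR summit (blue) and of the TSSs of genes that share it (orange diamonds), in bp from the member's TSS nearest the summit, with negative values upstream of the member. Of the 13 summits 10 lie upstream of the member, and ATPsynO is the single lane with no diamond.

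Each of the 13 member IDR summits had a summit within 100 bp in replicate 2 and in replicate 3. The IDR peaks are the highest pooled peaks by signal, and the pooled list was called on both replicates together. Such matches are therefore partly built in and do not show that each summit repeated at a like rank. The order of these summits by signal differed between the replicates. Among the 2445 highest peaks of each replicate list, a number equal to the length of the IDR list, both replicates held a summit at 8 of the 13 members, namely COX5A, COX5B, Cyt-c-d, ND-23, ND-24, ND-42, ND-51 and ND-ASHI. Replicate 2 alone did so at ATPsyngamma, replicate 3 alone at ATPsynO, ND-MWFE and UQCR-C1, and neither at COX6B. Any summit within 500 bp of a TSS counted here. With the replicate summit nearest to the IDR summit instead, both replicates held 7, as that of COX5A in replicate 3 ranked 3386. Among the 71 members outside the IDR list, ATPsynbeta was the single gene in this range in both replicates. COX4L was in this range in replicate 2 alone, and ATPsynCF6, COX7AL2, ND-MNLL and ND-PDSW in replicate 3 alone. The other 65 reached it in neither. This division was made over the members alone. Taken by itself, replicate 2 held a summit in this range at 11 members (13.1%), against 12.2% of all protein-coding genes. Replicate 3 held one at 16 members (19.0%), against 12.1%.

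**Figure D3:**
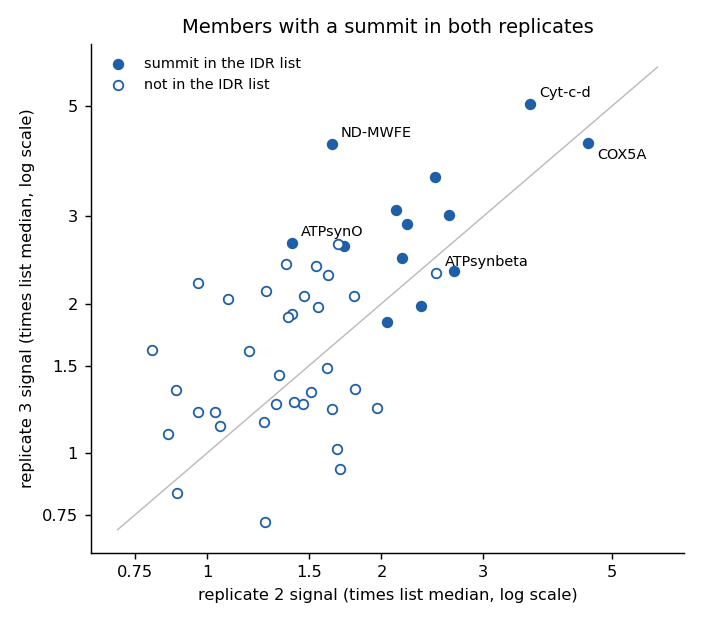
Signal of the highest promoter summit of each of the 47 members with a summit in both replicate lists, as a multiple of the list's median, replicate 2 against replicate 3 on log scales, with a line of equality. Filled points are members with an IDR summit, and the replicate summits of a gene need not be the same peak. COX5A and Cyt-c-d are high in both, and ND-MWFE and ATPsynO lie well above the line.

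The plain-named members and the L paralogs differed in how often they carried a summit. None of the 22 L paralogs had an IDR summit (0%, upper limit 15.4%), against 13 of the 62 others (21.0%, 11.7 to 33.2), and these intervals overlap. A pooled summit lay at 6 L paralogs (27.3%, 10.7 to 50.2) and at 52 of the others (83.9%, 72.3 to 92.0), where the intervals do not overlap. Counting the 19 members whose symbol ends exactly in L, the wording first planned, the pooled shares were 5 of 19 (26.3%, 9.15 to 51.2) and 53 of 65 (81.5%, 70.0 to 90.1). Both replicate lists had a summit at 5 L paralogs (22.7%) and at 42 of the others (67.7%). The share of all protein-coding genes with a pooled summit, 54.2%, lies between those of the 2 kinds of member, above the interval of the L paralogs and below that of the others. The L paralogs with a pooled summit were UQCR-6.4L, COX4L, COX6AL2, COX7AL, COX7AL2 and ATPsynepsilonL. COX4L is the one of these without a summit in both replicates. At COX7AL2 the replicate summits are different peaks near different starts, at chr2L:2192466 in replicate 2 and chr2L:2197513 in replicate 3.

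Of the 84 members, 47 had a summit in the pooled list and in both replicate lists, 10 had one in 2 of these lists, 11 in 1 list and 16 in none. This split too was made over the members alone. The 16 genes with no summit in any list include 13 L paralogs. They are ND-24L, ND-49L, ND-51L1, ND-51L2, Cyt-c1L, UQCR-11L, UQCR-14L, COX6AL, COX6CL, COX7CL, ATPsynCF6L, ATPsynGL and ATPsynbetaL. The plain-named genes with none were ND-ACP, the mitochondrial acyl carrier protein, ND-B16.6, an accessory subunit of complex I, and ATPsyndelta, a subunit of the central stalk of complex V. The next complex I genes below the IDR list were ND-20, a conserved iron-sulfur subunit, at pooled rank 3086, and ND-PDSW, at rank 3198. ND-20 had 1.79 times the median in replicate 2 and 2.08 times in replicate 3, and ND-PDSW had 1.37 and 2.40 times. Just inside the limit of 500 bp in the pooled list were summits of COX4 at 473 bp, Cyt-c-p at 474 bp and ND-15 at 493 bp. Just outside it were summits of COX7AL2 at 502 bp, which ranked 3439, of ND-B17.2 at 518 bp and of UQCR-6.4 at 523 bp, and each of these 3 genes also had a pooled summit inside.

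Member summits tended to lie upstream of the gene, as summits at other genes did. In the IDR list 10 of 13 were upstream (76.9%, 46.2 to 95) with a median position 59 bp before the TSS, against 84.1% and 118 bp for all protein-coding genes. In the pooled list 51 of 76 member summits were upstream (67.1%, 55.4 to 77.5), against 67.5% over all. The replicates gave 54.5% for replicate 2 and 66.2% for replicate 3, beside 65.7% and 67.0% over all protein-coding genes.

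Most member IDR summits were shared with a second gene. Another gene had a TSS within 500 bp of 12 of the 13 (92.3%, 64.0 to 99.8), whereas this held for 546 of the 1211 IDR summits at protein-coding genes (45.1%). A shared summit is reached from more than 1 gene, so the like count is over pairs of gene and summit. It gave 1081 of 1746 pairs (61.9%, 59.6 to 64.2) over all protein-coding genes, and this interval overlaps that of the members. In the pooled list the shares were 59.2% (47.3 to 70.4) of 76 member pairs and 43.8% (42.8 to 44.8) of 10333 pairs over all protein-coding genes. The member was the nearest gene at 9 of the 13 IDR summits, counting COX6B, which ties with CG18809 at the same TSS. Every shared gene at these summits was protein-coding, and 11 of the 12 shared summits lay between or beside starts that point away from each other (head-to-head starts), the exception being Cyt-c-d.

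Because of this, the members were divided by whether a protein-coding gene starts head to head within 500 bp, a division chosen after the shared summits had been seen. Such a neighbour was present at 38 of 84 members (45.2%) and at 3815 of 13945 protein-coding genes (27.4%). It was present at 35 of the 62 plain-named members (56.5%) and at 3 of the 22 L paralogs (13.6%). Members with a head-to-head neighbour had an IDR summit in 11 of 38 cases (28.9%, 15.4 to 45.9), and those without one in 2 of 46 (4.35%, 0.531 to 14.8), namely Cyt-c-d and ATPsynO. Over all protein-coding genes the shares were 25.1% (23.7 to 26.5) with and 7.11% (6.61 to 7.63) without such a neighbour. In each arrangement the share of all genes lies within the members' interval. Restricted to plain-named members, the shares were 11 of 35 (31.4%, 16.9 to 49.3) with and 2 of 27 (7.41%, 0.910 to 24.3) without a head-to-head neighbour, and these intervals overlap. A gene counted here can share its summit with the neighbour, so the genes are not independent of each other. A summit at the neighbour's start can count for the gene too, so the assignment rule by itself can raise the share with a neighbour.

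**Figure D4:**
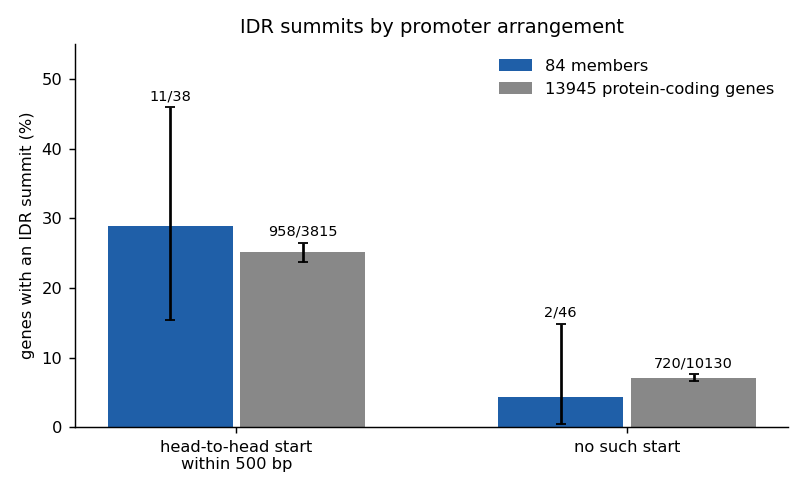
Percentage of genes with an IDR summit within 500 bp of a TSS, for genes with and without a head-to-head protein-coding start within 500 bp. Blue bars are the 84 members, grey bars are all 13945 protein-coding genes, error bars are exact 95% intervals and the counts stand above the bars. In both sets the bar is higher with a head-to-head start, where a summit at the neighbour can count for the gene too.

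The pairs are of mixed function. Some join respiration to other mitochondrial processes, such as ND-ASHI with Fum1 and ND-42 with Cchl, and outside the IDR list ND-B16.6 starts 228 bp from kdn, the citrate synthase gene, and ATPsynD 95 bp from mRpL55, a gene of the mitochondrial ribosome. Others join it to genes known for quite different roles, such as ND-23 with spn-E, COX5A with glo, and ND-PDSW with msl-2, a gene of male dosage compensation whose start is 45 bp away. The pairs outside the IDR list in these sentences were picked after their values had been seen.

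Known core promoter motifs were sought within 50 bp of the summits, on both strands. Across the 76 pooled member summits, the M1BP motif GGTCACAC, named for a zinc-finger factor of Drosophila core promoters, was present at 9 (11.8%, 5.56 to 21.3), against 3.10% (2.73 to 3.50) of 8168 summits at protein-coding genes. The core promoter E-box CAGCTG was present at 14 (18.4%, 10.5 to 29.0), against 6.06% (5.55 to 6.60). The TATA letters TATAAA were present at 19 (25%, 15.8 to 36.3), against 15.3% (14.5 to 16.1), but within 25 bp the members' share was the lower one, 6.58% against 8.02%. Counted for each gene at a summit, the shares over all genes were 3.45% for M1BP, 6.16% for CAGCTG and 16.1% for TATAAA. The DNA replication-related element (DRE) TATCGATA was present at 2 (2.63%), against 3.39%, and its core ATCGAT, which every DRE match contains, at 8 (10.5%), against 9.34%. GAGAGAG, bound by GAGA factor, was present at 1 (1.32%), against 2.73%. The E-box CACGTG, the NRF1 motif GCGCANGCG, the ETS motif CCGGAAG and the Zelda motif CAGGTAG had no match at a member summit (0%, upper limit 4.74% each), and over all summits they were present at 1.33%, 0.514%, 0.845% and 0.686%.

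**Figure D5:**
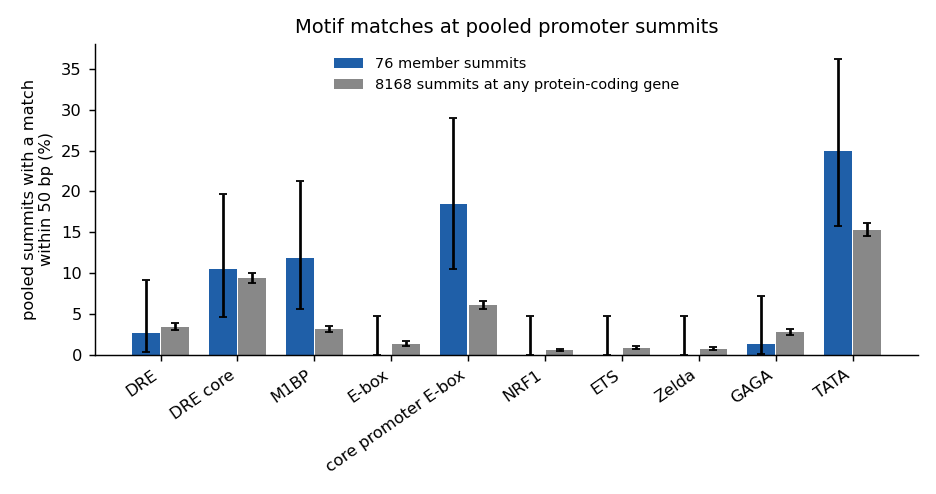
Percentage of pooled summits within 500 bp of a TSS with a match to each motif within 50 bp, for 76 member summits (blue) and 8168 summits at any protein-coding gene (grey), with exact 95% intervals. The M1BP and core promoter E-box bars of the members, 11.8% and 18.4%, have intervals that do not overlap the grey ones, and those of the other motifs do.

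The M1BP matches lay at member summits below the IDR list. None of the 13 member IDR summits had one within 50 bp (0%, upper limit 24.7%; 3.14% over all 1211), while 9 of the 63 other pooled member summits did (14.3%), against 3.09% of 6957. For CAGCTG the numbers were 1 of 13 member IDR summits, at ATPsynO, and 13 of 63 others (20.6%), the latter against 6.15% of 6957. TATAAA was present at 5 of the 13 member IDR summits (38.5%, 13.9 to 68.4), namely those of COX5A, Cyt-c-d, ND-ASHI, ND-42 and ND-23, and at 23.1% of all 1211. A TATAAA match in a stretch of A and T is not shown to be a TATA box. The following are 30-base stretches of dm6 with the M1BP motif in capitals, each on the motif's strand, shown because this motif was found at member summits below the IDR list and at none in it. Apart from ND-PDSW, COX7AL, UQCR-C2 and Cyt-c-p, they were picked after their values had been seen.
ND-PDSW: tggcacactgcGGTCACACtggcttcgctc
COX7AL: atgccaaattaGGTCACACtattcgctctc
UQCR-C2: cgctccaaaatGGTCACACcgagtaccagc
COX4: attcgagatgtGGTCACACttctctgcatg
ATPsynD: accctcgggtcGGTCACACtatcagctgcc
Cyt-c-p: ccggtcactctGGTCACACtaattacctat
They lie at chr2L:3466069-3466098 (minus strand, ND-PDSW), chr3R:8343497-8343526 (minus, COX7AL), chr3L:16584232-16584261 (minus, UQCR-C2), chr2L:19958640-19958669 (plus, COX4), chr3R:19094884-19094913 (minus, ATPsynD) and chr2L:16719887-16719916 (plus, Cyt-c-p). The distance from the summit to the motif ran from 1 bp at ND-PDSW to 42 bp at ATPsynD. The highest of these summits, that of ND-PDSW, had pooled rank 3198. Matches at the summits of UQCR-6.4, at rank 4323, ND-18, at rank 19692, and ND-13A, at rank 21124, are not printed.

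The same motifs were sought in the promoters of all members, from 250 bp before to 50 bp after the start, whether or not a summit was present. GGTCACAC was in 20 of 84 member promoters (23.8%), against 8.71% of all protein-coding genes, and these comprised 19 of the 62 plain-named members (30.6%) and 1 of the 22 L paralogs (4.55%). CAGCTG was in 25 of the 62 (40.3%) and 1 of the 22 (4.55%), against 22.3% of all genes. TATCGATA was in 13 of the 62 (21.0%) and none of the L paralogs, against 10.2% of all genes. TATAAA was in 41 of the 62 (66.1%) and 7 of the 22 (31.8%), against 51.2% of all genes. Among the 13 members with an IDR summit, 3 had GGTCACAC (23.1%) and 7 had CAGCTG (53.8%) in the promoter. Over all 1678 protein-coding genes with an IDR summit the shares were 14.5% and 32.4%. At these members the motifs stood within the promoter but, ATPsynO aside, farther than 50 bp from the summit.

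Genes of neighbouring pathways were read from 5 lists. Of 13 further subunit genes that the symbol rule misses, 2 had an IDR summit (15.4%), close to the members' 15.5%, and 10 had a pooled summit. The 2 were blw, which codes for the alpha subunit of ATP synthase, at rank 902, and SdhC, a membrane subunit of complex II, at rank 1817. blw ranked 1221 in replicate 2 and 594 in replicate 3, each above any complex V member in the same list. Among 9 assembly factors, CIA30, which assembles complex I, ranked 108 and Cox17, a copper chaperone of complex IV, ranked 1621. CIA30 thus stood above all 84 members, with rank 124 in replicate 2 and rank 120 in replicate 3, and it shares its summit with CG7601.

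Of 11 tricarboxylic acid cycle genes, 3 had an IDR summit (27.3%) and 9 a pooled one. Idh3g, a subunit of isocitrate dehydrogenase, ranked 66, with rank 72 in replicate 2 and rank 55 in replicate 3, and shares the summit with CG4743. Fum1 has the summit it shares with ND-ASHI, and mAcon1, the mitochondrial aconitase gene, ranked 2247. Of 12 glycolysis genes, 5 had an IDR summit (41.7%) and 9 a pooled one. The highest were Gapdh2 at rank 159, Ldh at rank 236 and Eno at rank 787, which code for glyceraldehyde 3-phosphate dehydrogenase, lactate dehydrogenase and enolase. These 3 were high in both replicates, and no other gene lay within 500 bp of their summits. Of 9 genes of mitochondrial DNA maintenance and nuclear regulators, 1 had an IDR summit (11.1%), mtSSB at rank 675, and 8 had a pooled one. With so few genes in each list, the shares are given as descriptions beside the 12.0% and 54.2% of all protein-coding genes.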

How the data were processed

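ChIP-seq peak lists from 2 biological replicates of 1 group were used. Per the labels, chromatin was sonicated to 200 to 800 bp. Per the notes deposited beside the files, peaks were called on each replicate and on both together against a control alignment, on dm6, and the IDR list was derived from these. No source used here gives the caller, the aligner or the threshold on IDR. The signal of each peak is the authors' value of unstated scale, and background that the control alignment missed remains in it. The −log10 q values that the authors deposited are capped and were not used. The highest pooled peaks by signal are the IDR peaks. The replicate lists differ in their values.

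TSSs of all transcripts came from Ensembl release 115, without transposable elements, on X, 2L, 2R, 3L, 3R and 4, and sequence from the RefSeq copy of dm6. A gene was assigned every summit within 500 bp. Coordinates are 1-based. Motifs were searched by exact letters on both strands. Shares have exact Clopper-Pearson intervals (scipy 1.17.1, pandas 2.3.3), no tests were run, and overlapping genes and shared summits are not independent. The summit assignment and motif search were tested on simulated data.

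The members, gene lists and motifs were chosen with earlier results of these data known. Of the listed genes, Ecsit and Twinkle had no match and 3 symbols were matched through synonyms. The text names members with an IDR summit, the 2 highest other pooled members of each complex, members at the distance limit, those with no summit, and up to 3 genes of each list. L paralogs were planned as symbols ending in L. After ranks had been seen, the definition was changed to take L with a digit and to leave out ND-MNLL, whose letters are amino acids. Alternatives varied the distance, the TSS set, the list length, the motif window and the replicates.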

Additional observations from a re-analysis of the deposited data

How the results depend on the processing

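No paired analysis was possible because there is 1 group and no test. Of 179 alternative values, 143 stayed within 1.5 times the reported count, inside the reported share's interval or, for ranks of the members with an IDR summit, within the spread between replicates, and 36 moved. The members' share with a summit was below that of all genes in the 1222 highest IDR peaks. It was above that of all genes in 8 settings. These include the reported one and the 2445 highest peaks of replicate 2 or 3 alone. The number of members with an IDR summit was 11 within 200 bp, 15 within 1000 bp, 13 at canonical TSSs and 9 with each summit given to its nearest gene alone, an alternative added after seeing the data. No IDR list exists for 1 replicate alone. With a replicate left out, the 2445 highest peaks of the other replicate stood in for it. They held a summit at 16 members without replicate 2 and at 11 without replicate 3, and these are not IDR counts. The all-gene shares moved too, to 9.12% within 200 bp and 13.7% within 1000 bp (members 13.1% and 17.9%). They were 10.6% at canonical TSSs and 8.50% with the nearest gene alone (members 15.5% and 10.7%). Without replicate 2 the all-gene share was 12.1%, and without replicate 3 it was 12.2% (members 19.0% and 13.1%). The length of the list set the counts. In the 1222 highest IDR peaks they were 3 in all, against 6.33% of all genes, with 1 in complex I, 0 in complex III, 1 in complex IV and 0 in complex V. With 4890 pooled peaks they were 25 in all (29.8%, against 22.6% of all genes), with 10, 4, 6 and 4 in these complexes and 2 among L paralogs. In the 2445 highest peaks of 1 replicate alone, complex III ranged from 0 to 1 and the L paralogs had 1. Cytochrome c had 0 within 200 bp and 2 within 1000 bp. Pooled summits at members upstream of the TSS ranged from 54.5% to 66.2% with 1 replicate alone. The causes were not tested. Within 200 bp, ND-ASHI dropped to rank 25508. A wider window holds the narrower one, so the motif shares given next could only stay or grow with it. Within 25 and 100 bp of member summits they were 6.58% and 38.2% for TATA (8.02% and 27.9% over all summits), 0% and 10.5% for DRE (1.71% and 7.06%), 3.95% and 18.4% for the DRE core (4.91% and 16.7%), 6.58% and 15.8% for M1BP (1.44% and 5.63%) and 10.5% and 27.6% for CAGCTG (3.13% and 12.1%). DRE was at 5.63% without replicate 2 and 1.30% without replicate 3. Counting pairs of gene and summit was added after seeing the data. Peaks can be compared by rank alone, since depth is unknown.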
